A study of Mus musculus with 12 samples.

Results

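Nrf2, encoded by Nfe2l2, was followed with its repressor Keap1 and 8 of its best known target genes, Nqo1, Hmox1, Gclc, Gclm, Srxn1, Txnrd1, Slc7a11 and Osgin1, in the gingiva of mice with and without ligature-induced inflammation. These 10 genes were chosen by name from the 21965 genes in the count table, with earlier results of these data known. All 10 had enough counts to be tested. Bulk mRNA sequencing was carried out on 12 gingival libraries in 4 groups of 3. The wild-type (WT) groups came from C57BL/6 mice and the CybbKO groups from mice labelled Cybb-/-, a knockout of the gene for the catalytic subunit of Nox2, the NADPH oxidase of phagocytes. Ligated tissue was taken 8 days after a silk thread had been tied around a maxillary molar, and naive tissue carried no ligature. All mice were under 12 weeks old. The labels name no cell type to which the knockout is confined, and they do not say whether a library came from 1 mouse or from several. The p-values therefore measure the spread between these libraries, which may be technical. The study is about Nox2 and neutrophilic inflammation of the mouth, and the Nrf2 transcript is one of the readouts its text takes up.

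Nrf2 is a transcription factor of the cap'n'collar family. In resting cells Keap1 holds it for ubiquitination by a cullin ligase, and it is degraded. When oxidants or electrophiles modify cysteines of Keap1, Nrf2 escapes, enters the nucleus, pairs with a small Maf protein and binds antioxidant response elements near its target genes. Much of this control acts on the protein, so that the level of the Nfe2l2 transcript and the activity of Nrf2 are separate quantities, and only transcripts were measured here. In oral epithelium the pathway is known for protection against oxidative injury.

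The core letters of the antioxidant response element, TGACNNNGC, were searched on both strands in the promoter windows of the members, since this is the sequence through which Nrf2 acts on its targets. The windows run from 250 bases before to 50 bases after each transcription start, and were taken from RefSeq on GRCm38.p6. Of the members, 8 were found in that table (Hmox1 and Gclc were not), and 4 of the 8 had a match. The matches are shown with 10 bases on each side, 5′ to 3′ on the strand of the gene, and the capitals mark the match. In Nfe2l2 it reads on the strand of the gene, and in Gclm, Txnrd1 and Srxn1 it reads on the other strand.
Nfe2l2, chr2:75704885-75704913, minus strand: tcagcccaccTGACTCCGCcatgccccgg
Gclm, chr3:122245413-122245441, plus strand: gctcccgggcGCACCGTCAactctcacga
Txnrd1, chr10:82859104-82859132, plus strand: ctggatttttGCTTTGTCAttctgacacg
Srxn1, chr2:152105542-152105570, plus strand: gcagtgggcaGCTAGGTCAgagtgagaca
The match began 240 bases upstream of the start in Nfe2l2, 134 bases upstream in Gclm and 92 bases upstream in 1 of the 3 Txnrd1 windows, and lay 29 bases downstream of the start in Srxn1. Among all 32851 windows 12.4% held a match, and 14% of 27025 genes had one in at least 1 window. A match is a run of letters and not a measured binding site, and the windows of Keap1, Nqo1, Slc7a11 and Osgin1 say only that these letters were not in them.

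The libraries held 27958819 to 42613423 counts each, and 15046 genes were tested. The members had between 319 counts, in Osgin1, and 31619 counts, in Nfe2l2, per library, so that the spread between libraries and not counting limited their precision. Cybb itself had a higher, and not a lower, level in the libraries labelled Cybb-/- than in the WT ones. Levels are given as CPM, the count of a gene scaled by the size of its library. Cybb had 5.06 ± 0.758 (SD, n = 3) CPM in WT naive tissue, 12.1 ± 3.43 in WT ligated tissue, 47.9 ± 7.56 in CybbKO naive tissue and 57.0 ± 6.31 in CybbKO ligated tissue. A gene-level count does not show which exons the reads came from, and the groups are called here the libraries labelled CybbKO, or CybbKO for short. Oral epithelial markers summed to 71097 CPM or more in every library, and neutrophil, macrophage and fibroblast markers were present in all 12. WT naive replicate 3 stood apart from the rest. Its 6 salivary and mucous gland markers summed to 33268 CPM, against 5602 CPM or less in the other 11 libraries, and the values of the members without it are given after their levels. CybbKO ligated replicate 2 stood apart from its group. On the first principal component, which held 44% of the variance and ran from ligated at negative to naive at positive values, it lay at -16.6 against -56.5 and -61.0 in the other CybbKO ligated libraries, and its epithelial sum of 118754 CPM was within the naive range.

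Nfe2l2 was the most abundant member in every group. On the scale of CPM per kilobase of exon, which allows levels of different genes to be set side by side, it stood at 223 ± 51.0 (SD, n = 3) in WT naive and 139 ± 2.16 in CybbKO ligated tissue. Nqo1 came next, at 100 ± 26.7 in WT naive and 65.5 ± 7.95 in CybbKO ligated tissue, and the ranges of these 2 genes did not overlap in any group. Gclc, Srxn1 and Hmox1 followed, at 68.6 ± 15.9, 53.0 ± 8.18 and 46.9 ± 7.91 in WT naive tissue, and neighbours among these 3 overlapped in every group. Gclm, Txnrd1 and Slc7a11 lay lower, at 16.6 ± 3.14, 11.5 ± 2.09 and 10.2 ± 2.92. Keap1, the repressor, was measured at 9.27 ± 1.81 and Osgin1 at 4.65 ± 0.886 in WT naive tissue, and these 2 did not overlap in any group. Lengths were those of all annotated exons joined, which sets long genes such as Slc7a11 (13.9 kb) lower than a single transcript would.

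**Figure D1:**
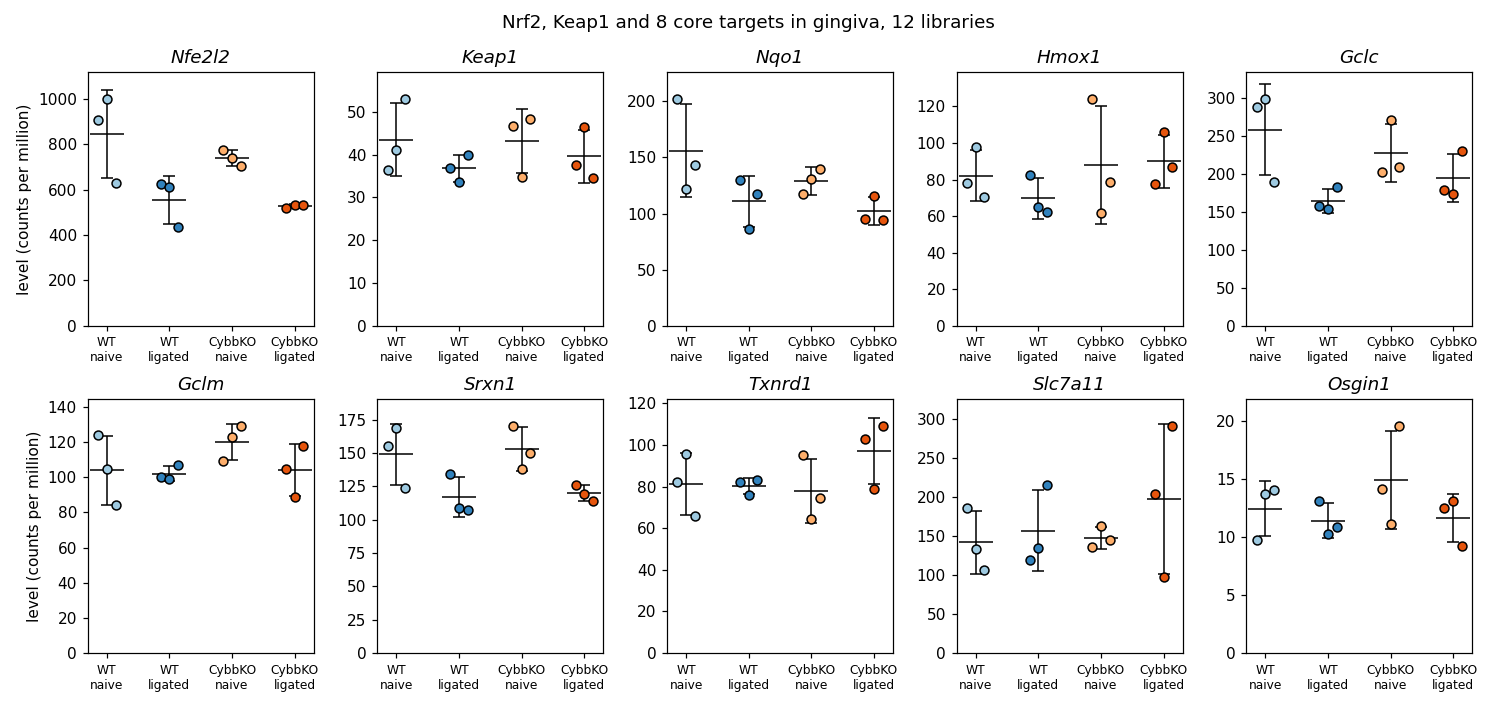
Level of each member in CPM (vertical axes, each starting at 0) in the 12 libraries. Points are libraries in replicate order, the short line is the group mean and the bar is 1 SD (n = 3). Nfe2l2 ran from 435 to 625 CPM in the 6 ligated libraries and from 628 to 1000 CPM in the 6 naive ones.

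The transcript of Nrf2 was lower in ligated than in naive gingiva of both genotypes and no difference between the genotypes was detected. Nfe2l2 (ENSMUSG00000015839, chr2:75675513-75704641, minus strand, GRCm38) stood at 909, 1000 and 628 CPM in the WT naive libraries and at 625, 610 and 435 CPM in the WT ligated ones. In the libraries labelled CybbKO it stood at 774, 740 and 704 CPM in naive and at 519, 534 and 531 CPM in ligated tissue. The 3 CybbKO ligated libraries lay inside the range of the WT ligated ones, with a coefficient of variation of 1.55% against 19% in WT. The lowest naive library, WT naive replicate 3, lay 3 CPM above the highest ligated one, so the 2 conditions did not overlap within either genotype or over all 12 libraries.

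Ligated against naive, Nfe2l2 had a log2 fold change of -0.60 (SE 0.18, 95% interval -1.0 to -0.21) in WT, with an adjusted p of 0.0898 in edgeR's quasi-likelihood test. In the libraries labelled CybbKO it was -0.49 (SE 0.18, interval -0.88 to -0.09, adjusted p = 0.102). DESeq2 called Nfe2l2 in both genotypes, with adjusted p-values of 0.023 and 0.049. Without WT naive replicate 3 edgeR called it as well, at -0.78 in WT (adjusted p = 0.0238) and at -0.49 in CybbKO (adjusted p = 0.0391). Averaged over both genotypes, a comparison that was added after seeing the data, Nfe2l2 fell by 0.54 on the log2 scale (SE 0.13, edgeR adjusted p = 0.0101), to 0.685 of its naive level (interval 0.565 to 0.832). It was lower in 6 of 6 ligated libraries than in any naive one, and 11% of all genes were also fully separated, in either direction. The exact two-sided permutation test, which did not keep the genotypes apart, gave p = 0.00216, the smallest that 6 libraries against 6 allow. Full separation fixes this p, so it adds nothing to the separation itself. In bulk samples, fewer cells of a type and less RNA per cell cannot be told apart.

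Between the genotypes, Nfe2l2 differed in ligated tissue by -0.08 on the log2 scale (SE 0.18, edgeR adjusted p = 1.0), which is 0.949 times the WT level with a 95% interval of 0.722 to 1.25. The exact permutation test of the 3 libraries against 3 gave p = 1.0, where 0.1 is the smallest this design allows. Leaving out a library moved the value between -0.23 (WT ligated replicate 3) and 0.00 (WT ligated replicate 1). The naive groups differed by -0.19 (SE 0.18, interval -0.59 to 0.20, adjusted p = 1.0), and -0.37 without WT naive replicate 3. The difference between these differences was 0.12 (SE 0.25, interval -0.44 to 0.68). A decrease of Nfe2l2 in CybbKO ligated tissue beyond 0.722 of the WT level lies outside the interval of this comparison.

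Keap1, the adaptor that binds Nrf2 for degradation (ENSMUSG00000003308, chr9:21229730-21239361, minus strand), stood at 36.5, 41.0 and 53.0 CPM in WT naive, 37.0, 33.5 and 40.0 CPM in WT ligated, 46.6, 34.7 and 48.4 CPM in CybbKO naive and 37.7, 46.5 and 34.5 CPM in CybbKO ligated libraries. All 4 groups overlapped. Its log2 difference, ligated minus naive, was -0.24 (SE 0.18) in WT and -0.13 (SE 0.18) in CybbKO, and between genotypes it was 0.10 in ligated and -0.01 in naive tissue. Without WT naive replicate 3, its highest library, the WT value was -0.07.

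Nqo1 and Hmox1 encode detoxifying enzymes. Nqo1 reduces quinones without releasing radicals (ENSMUSG00000003849, chr8:107388225-107403206, minus strand). It was measured at 202, 122 and 143 CPM in WT naive, 130, 86.0 and 117 CPM in WT ligated, 117, 131 and 140 CPM in CybbKO naive and 95, 116 and 94.2 CPM in CybbKO ligated libraries. The naive and ligated libraries overlapped in WT and did not in CybbKO. The log2 difference, ligated minus naive, was -0.49 (SE 0.20) in WT and -0.35 (SE 0.20) in CybbKO, and the adjusted p-values of edgeR were 0.193 and 0.279. Between genotypes it was -0.13 (interval -0.55 to 0.30) in ligated and -0.27 (interval -0.69 to 0.16) in naive tissue. Without WT naive replicate 1, its highest library, the WT value was -0.25 and the naive difference between genotypes -0.03.

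Hmox1 opens heme to yield biliverdin, carbon monoxide and iron (ENSMUSG00000005413, chr8:75093621-75100589, plus strand). It stood at 78.3, 97.6 and 70.7 CPM in WT naive, 82.7, 64.7 and 62.1 CPM in WT ligated, 124, 61.5 and 78.5 CPM in CybbKO naive and 77.6, 106 and 86.6 CPM in CybbKO ligated libraries. CybbKO naive replicate 1 held the highest value and CybbKO naive replicate 2 the lowest, so that the spread within 1 group covered all 12 libraries. Its log2 difference between genotypes in ligated tissue was 0.37 towards CybbKO (SE 0.24, interval -0.15 to 0.88, edgeR adjusted p = 1.0), and 0.23 without CybbKO ligated replicate 2. Ligated minus naive it was -0.23 (SE 0.24) in WT and 0.03 (SE 0.24) in CybbKO. The CybbKO value was 0.36 without CybbKO naive replicate 1 and -0.17 without CybbKO naive replicate 2, and the interaction 0.60 and 0.06.

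Gclc and Gclm are the catalytic and the modifier subunit of glutamate-cysteine ligase, the rate-limiting enzyme of glutathione synthesis. Gclc (ENSMUSG00000032350, chr9:77754535-77794485, plus strand) stood at 287, 298 and 189 CPM in WT naive and 157, 153 and 182 CPM in WT ligated libraries, which did not overlap. In CybbKO it stood at 202, 271 and 209 CPM in naive and 179, 173 and 230 CPM in ligated libraries, which did. The log2 difference, ligated minus naive, was -0.65 in WT (SE 0.19, edgeR adjusted p = 0.0819, DESeq2 adjusted p = 0.0202) and -0.23 in CybbKO (SE 0.19, edgeR adjusted p = 0.468). Without WT naive replicate 3 it was -0.83 in WT, with an edgeR adjusted p of 0.0233. The difference between the genotypes in this response was 0.42 (SE 0.27, interval -0.16 to 1.01, adjusted p = 1.0), the largest interaction among the members, and it did not pass the test.

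Gclm (ENSMUSG00000028124, chr3:122245557-122270732, plus strand) stood at 124, 105 and 84.3 CPM in WT naive, 100, 98.8 and 107 CPM in WT ligated, 109, 123 and 129 CPM in CybbKO naive and 105, 88.9 and 118 CPM in CybbKO ligated libraries. The log2 difference, ligated minus naive, was -0.04 (SE 0.15) in WT and -0.21 (SE 0.15) in CybbKO. All 4 groups overlapped with their counterparts. Whether Gclc and Gclm differed from each other in their response was not tested.

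Slc7a11, the cystine-glutamate antiporter that feeds glutathione synthesis (ENSMUSG00000027737, chr3:49892526-50443614, minus strand), was measured at 186, 133 and 106 CPM in WT naive, 119, 135 and 216 CPM in WT ligated, 136, 163 and 145 CPM in CybbKO naive and 204, 98.1 and 291 CPM in CybbKO ligated libraries. The 3 CybbKO ligated libraries held both the highest and the lowest value of the 12, with a coefficient of variation of 48.8%. The log2 difference, ligated minus naive, was 0.15 (SE 0.34) in WT and 0.42 (SE 0.35, interval -0.34 to 1.17) in CybbKO. The CybbKO value was 0.03 without CybbKO ligated replicate 3 and 0.74 without CybbKO ligated replicate 2. The 8 oral epithelial markers summed to the opposite order in these libraries, at 77579, 118754 and 71097 CPM. The 8 neutrophil markers summed to the same order as Slc7a11, at 4424, 2491 and 11643 CPM. The part of tissue composition in the spread of Slc7a11 was not tested.

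Srxn1 and Txnrd1 serve the thioredoxin system. Srxn1, the sulfiredoxin that repairs overoxidized peroxiredoxins (ENSMUSG00000032802, chr2:152105516-152111376, plus strand), stood at 155, 169 and 124 CPM in WT naive, 134, 109 and 107 CPM in WT ligated, 170, 138 and 150 CPM in CybbKO naive and 126, 119 and 114 CPM in CybbKO ligated libraries. WT naive replicate 3 lay within the WT ligated range, and in CybbKO the naive and ligated libraries did not overlap. The log2 difference, ligated minus naive, was -0.36 in WT and -0.35 in CybbKO (SE 0.14 in both), with edgeR adjusted p-values of 0.184 and 0.122, and the genotypes differed in this response by 0.00 (SE 0.20).

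Txnrd1, the cytosolic thioredoxin reductase (ENSMUSG00000020250, chr10:82833951-82897712, plus strand), stood at 82.2, 95.6 and 66.0 CPM in WT naive, 82.0, 76.1 and 83.3 CPM in WT ligated, 95, 64.4 and 74.5 CPM in CybbKO naive and 103, 79.0 and 109 CPM in CybbKO ligated libraries. It was flat in WT, at -0.02 (SE 0.18), and its log2 difference in CybbKO, ligated minus naive, was 0.32 (SE 0.18, interval -0.07 to 0.70, edgeR adjusted p = 0.270). Osgin1, an oxidative stress-induced growth inhibitor (ENSMUSG00000074063, chr8:119434124-119446256, plus strand), stood at 9.72, 13.7 and 14 CPM in WT naive, 13.1, 10.2 and 10.8 CPM in WT ligated, 14.1, 11.1 and 19.5 CPM in CybbKO naive and 12.5, 13.1 and 9.22 CPM in CybbKO ligated libraries. Its groups overlapped, and the log2 difference, ligated minus naive, was -0.13 (SE 0.23) in WT and -0.36 (SE 0.23) in CybbKO. Without CybbKO naive replicate 3, its highest library, the CybbKO value was -0.12 and the naive difference between genotypes 0.02.

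Without WT naive replicate 3, the library rich in gland markers, the log2 difference in WT, ligated minus naive, moved away from 0 in Nfe2l2 and Gclc, as given above, and in Srxn1 (-0.47), Nqo1 (-0.55), Hmox1 (-0.33), Gclm (-0.17) and Txnrd1 (-0.14). It moved towards 0 in Keap1 and in Osgin1 (-0.04) and changed sign in Slc7a11 (-0.03). The naive difference, CybbKO minus WT, was then -0.36 in Gclc, -0.32 in Nqo1, -0.19 in Txnrd1, 0.00 in Hmox1, 0.07 in Gclm and 0.35 in Osgin1, and it changed sign in Keap1 (0.16), Srxn1 (-0.09) and Slc7a11 (-0.11). The interaction moved to 0.29 in Nfe2l2, 0.60 in Gclc, 0.46 in Txnrd1, 0.44 in Slc7a11, 0.36 in Hmox1, 0.20 in Nqo1, 0.12 in Srxn1, -0.04 in Gclm and -0.32 in Osgin1, and changed sign in Keap1 (-0.05). Of these values, the WT differences of Nfe2l2 and Gclc passed edgeR's test.

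Without CybbKO ligated replicate 2, edgeR called 0 of the 10 members in CybbKO, as it did with it. Ligated minus naive, the log2 difference in CybbKO was then 0.74 in Slc7a11 (SE 0.28, adjusted p = 0.0854), 0.44 in Txnrd1, -0.45 in Nqo1, -0.46 in Osgin1, -0.26 in Keap1, -0.15 in Gclc and -0.10 in Gclm, and it changed sign in Hmox1 (-0.10). It was -0.50 in Nfe2l2 and -0.35 in Srxn1, and all of these moves were within the SE of the value with all libraries. Between genotypes in ligated tissue, Slc7a11 stood at 0.66 (SE 0.28, adjusted p = 0.711) and Txnrd1 at 0.40, while Keap1 (-0.03) and Osgin1 (-0.07) changed sign.

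Ligated against naive, most members had a lower mean in the inflamed tissue, and none passed edgeR's test within a genotype. In WT, 9 of 10 members had a lower mean in ligated tissue, with log2 differences from -0.65 to 0.15. The sign was not stable in 3 of them, Gclm, Txnrd1 and Slc7a11, which changed it in 3, 4 and 2 of 20 alternative settings. edgeR called 0 of the 10, while it called 3.2% of all 15046 genes, 0.884% as lower. At an unadjusted p under 0.05 there were 4 members (Gclc, Nfe2l2, Srxn1 and Nqo1), where 19.9% of all genes passed. DESeq2 called 2 members, Nfe2l2 and Gclc, against 8.93% of all genes. The WT groups did not overlap in these same 2 members, where 24.9% of all genes did not overlap. The median over the members was -0.24, and over all genes tested it was -0.03.

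In the libraries labelled CybbKO, 7 of 10 members were lower in ligated tissue, with log2 differences from -0.49 to 0.42 and a median of -0.22, against -0.03 over all genes. Hmox1 changed sign in 3 of 20 alternative settings. edgeR called 0 of the 10, while 13% of all genes were called, 3.04% as lower. At an unadjusted p under 0.05 there were 2 members, Nfe2l2 and Srxn1, where 27.7% of all genes passed. DESeq2 called 1 member, Nfe2l2, against 17.8% of all genes. The groups did not overlap in 3 members, Nfe2l2, Nqo1 and Srxn1, where 31.4% of all genes did not overlap.

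The comparisons in WT and in CybbKO have no library in common, and 7 of 10 members (70.0%) had a lower mean in ligated tissue in both, where 43.4% of all genes did. In the average over both genotypes, which was added after seeing the data, edgeR called 4 members, all lower, against 24.4% of all genes, 9.66% as lower. At an unadjusted p under 0.05 the members were again these 4, where 37.2% of all genes passed, and DESeq2 also called 4, against 28.2%. Beside Nfe2l2, the 4 were Gclc at -0.44 (SE 0.13, adjusted p = 0.0322), Nqo1 at -0.42 (SE 0.14, adjusted p = 0.0471) and Srxn1 at -0.35 (SE 0.10, adjusted p = 0.0225). When a library was left out, between 1 and 4 members were called, Nfe2l2 each time. There was 1 without WT ligated replicate 2, and there were 2 without WT ligated replicate 3, CybbKO ligated replicate 1 or 3, WT naive replicate 1 or 2, or CybbKO naive replicate 1 or 2. Over the 6 ligated and 6 naive libraries 11% of all genes did not overlap, and Nfe2l2 was the member among them.

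**Figure D2:**
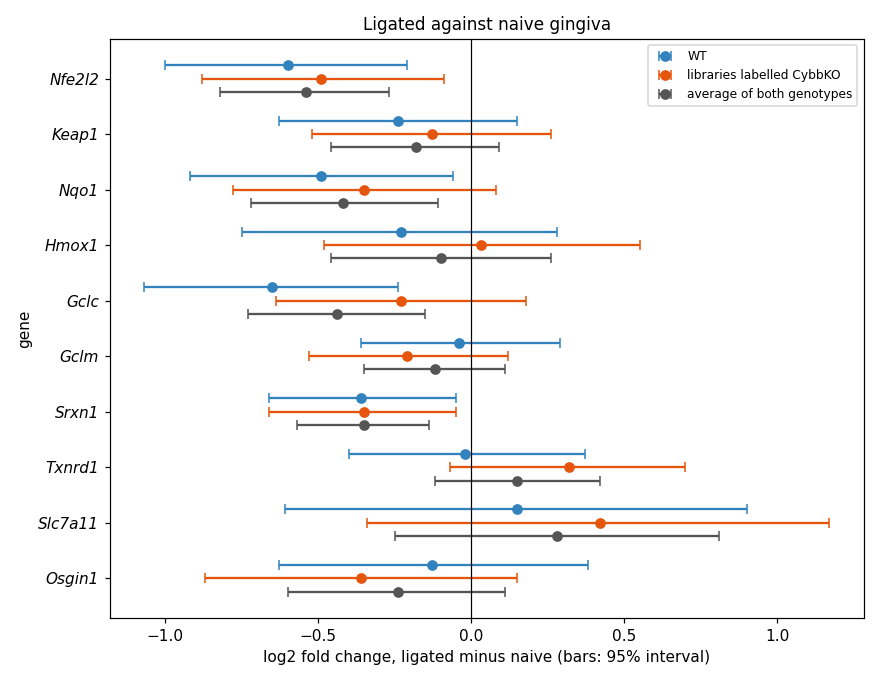
Log2 fold change of each member in ligated against naive gingiva (horizontal axis) with its 95% interval (bars), in WT, in the libraries labelled CybbKO and as the average of both. The intervals of Nfe2l2 and Srxn1 lie below 0 in all 3, those of Gclc and Nqo1 in WT and in the average, and Slc7a11 and Txnrd1 have averages above 0, at 0.28 and 0.15, with intervals that include it.

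Between the genotypes, no member was called in ligated or in naive tissue. In ligated tissue the log2 differences, CybbKO minus WT, ran from -0.13 (Nqo1) to 0.37 (Hmox1), with a median of 0.07 against 0.01 over all genes, and 8 of 10 were above 0. edgeR called 0 members, with 0 at an unadjusted p under 0.05 and 0 called by DESeq2. Among all genes edgeR called 0.00665%, which is 1 gene (Cybb), DESeq2 called 0.112%, and 3.34% passed at an unadjusted p under 0.05. The groups overlapped in all 10 members, where 7.84% of all genes did not overlap.

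In naive tissue the differences ran from -0.27 (Nqo1) to 0.26 (Osgin1), with 5 of 10 above 0 and a median of 0.01 against 0.00 over all genes. Again 0 members were called by edgeR or by DESeq2, and 0 passed at an unadjusted p under 0.05. Among all genes the shares were 0.00665% by edgeR (1 gene, Cybb), 0.011% by DESeq2 and 2.03% at an unadjusted p under 0.05. All 10 members overlapped, where 5.11% of all genes did not. The 95% intervals over the 10 members reached from -0.55 to 1.09 in ligated and from -0.69 to 0.82 in naive tissue, and each of the 20 includes 0.

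A difference between the genotypes in the ligature response was not detected in any member. The interaction values ran from -0.23 (Osgin1) to 0.42 (Gclc), with a median of 0.13 against 0.02 over all genes. edgeR and DESeq2 called 0 members and 0% of all genes, and 0 members passed at an unadjusted p under 0.05, where 2.27% of all genes did.

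**Figure D3:**
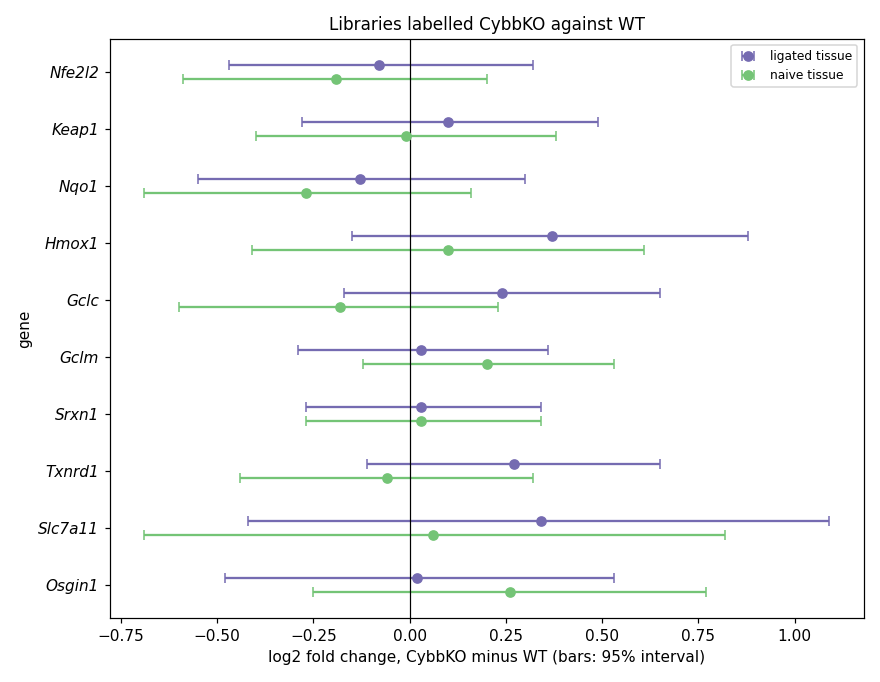
Log2 fold change of each member in the libraries labelled CybbKO against WT (horizontal axis) with its 95% interval (bars), in ligated and in naive tissue. All 20 intervals include 0, and that of Nfe2l2 in ligated tissue runs from -0.47 to 0.32.

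The make-up of the tissue differed with the ligature, beside the level of Nfe2l2. Neutrophil markers (8 genes, none at 0) summed to 371 to 843 CPM in WT naive, 818 to 924 in CybbKO naive, 1341 to 3769 in WT ligated and 2491 to 11643 in CybbKO ligated libraries. The 6 fibroblast markers summed to 1390 to 2917 CPM in naive and 3867 to 10396 CPM in ligated libraries, and the 8 monocyte and macrophage markers to 112 to 159 and 183 to 428 CPM. The 8 oral epithelial markers overlapped between conditions, at 90004 to 131122 CPM in naive and 71097 to 118754 CPM in ligated libraries. The naive and ligated libraries were thus apart in the fibroblast, neutrophil and macrophage sums as they were within each genotype in Nfe2l2, and no pooled correlation is given over these separate clusters. Within the CybbKO ligated group the neutrophil sum spread from 2491 to 11643 CPM while Nfe2l2 stayed between 519 and 534 CPM. Within the WT ligated group the neutrophil sums of 1341, 2580 and 3769 CPM stood beside falling Nfe2l2 levels of 625, 610 and 435 CPM. The part of tissue composition in the lower Nfe2l2 level was not tested.

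**Figure D4:**
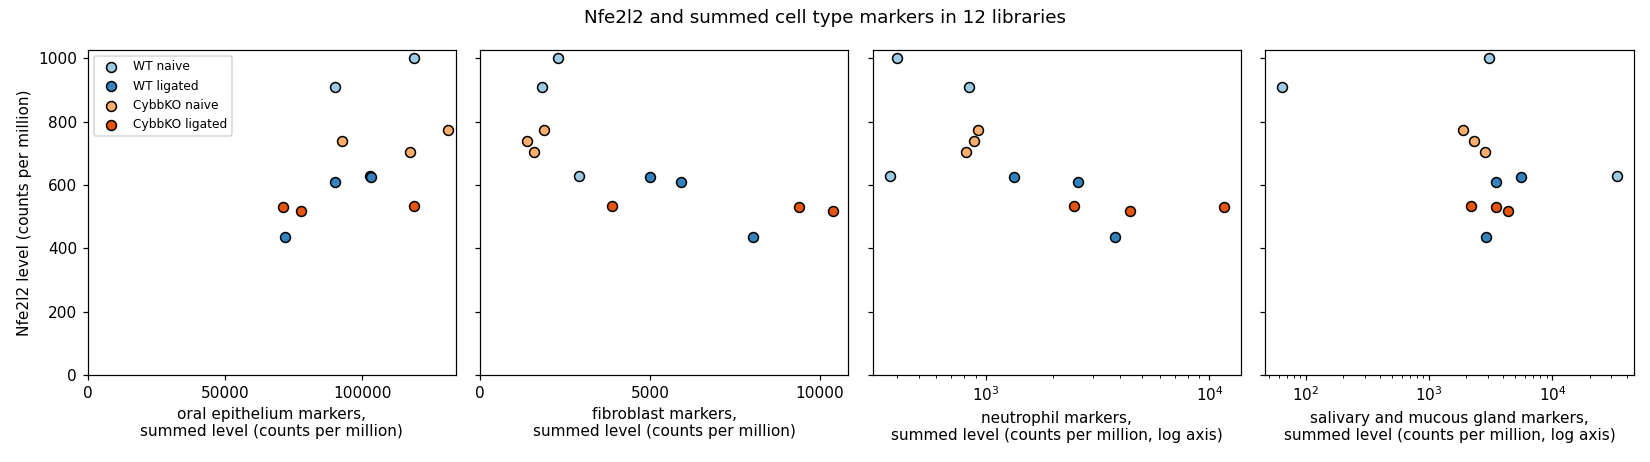
Level of Nfe2l2 (vertical axis, CPM) against the summed level of the oral epithelial, fibroblast, neutrophil and salivary and mucous gland markers (horizontal axes, CPM, the last 2 on a log axis) in the 12 libraries. The ligated libraries hold the higher fibroblast sums and the lower Nfe2l2 levels, and WT naive replicate 3 stands alone at a gland sum of 33268 CPM.

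Of the partners and regulators of Nrf2, 1 gene passed the test within a genotype. The list held 17 genes, among them the small Maf proteins, the related factors Nfe2l1 and Bach1 and the cullin ligase of Keap1, and all were tested. In WT edgeR and DESeq2 called 0 of 17, and 3 passed at an unadjusted p under 0.05, where 19.9% of all genes did, with a median log2 difference of -0.05, ligated minus naive. In CybbKO edgeR called 1, beside 13% of all genes, and DESeq2 also Mafg (lower, named after its value was seen), beside 17.8% of all genes. Nfe2, a blood cell relative of Nrf2, rose by 2.31 on the log2 scale (SE 0.52, edgeR adjusted p = 0.0138), from 0.26, 0.139 and 0.366 CPM in naive to 1.23, 1.23 and 1.35 CPM in ligated libraries, a call that was lost without CybbKO naive replicate 2. The neutrophil marker sums were also higher in the ligated libraries, at 2491 to 11643 CPM against 818 to 924 CPM in CybbKO, and their part in Nfe2 was not tested. In the average over both genotypes edgeR called Nfe2 higher (1.90, SE 0.38, adjusted p = 0.00451) and 2 genes lower, the small Maf gene Mafk (-0.35, SE 0.11, adjusted p = 0.0337) and Syvn1 (-0.37, SE 0.12, adjusted p = 0.0415), beside 24.4% of all genes. DESeq2 called 1 higher and 3 lower there, beside 28.2% of all genes called in either direction. The 2 lower calls were both kept without WT naive replicate 1 or CybbKO naive replicate 2, Mafk alone without WT ligated replicate 2, and there were 4 without CybbKO ligated replicate 2. Leaving out any of the other 8 libraries, WT naive replicate 3 among them, ended both calls. The remaining 16 had CybbKO log2 differences between -0.30 and 0.43, and edgeR and DESeq2 called 0 of 17 between genotypes in either tissue, with 1 (Nfe2) at an unadjusted p under 0.05 in ligated and 0 in naive tissue.

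Further Nrf2 target genes mostly had lower means in ligated tissue, 28 of 41 in WT and 31 of 41 in CybbKO. Those called in CybbKO were the glutathione S-transferases Gsta3, Gstm1 and Gstp1, the carbonyl reductases Cbr1 and Cbr3, the epoxide hydrolase Ephx1 and the catalase Cat. Of the 42 genes in this list 41 were tested. In WT 1 of 41 was called lower and 0 higher, and in CybbKO 7 of 41 were called lower and 0 higher, beside 0.884% and 3.04% of all genes called lower. The medians over the 41 were -0.19 in both genotypes, against -0.03 over all genes. Of the 41, 26 (63.4%) had a lower mean in ligated tissue in both genotypes, where 43.4% of all genes did. DESeq2 called 4 lower in WT and 11 in CybbKO and 0 higher, beside 8.93% and 17.8% of all genes called in either direction. The CybbKO count ranged from 2 without CybbKO ligated replicate 1, CybbKO ligated replicate 3 or CybbKO naive replicate 3, through 3 without CybbKO naive replicate 2, to 14 without CybbKO ligated replicate 2 (with 2 called higher, Gsr and Akr1b8), and was 8 without WT naive replicate 3. The WT call was lost without WT ligated replicate 2, WT ligated replicate 3 or WT naive replicate 2, and 2 genes were called without CybbKO ligated replicate 2. In the CybbKO ligated libraries all 7 called genes ran in the same order as the oral epithelial sums of 77579, 118754 and 71097 CPM, as did 51.2% of the 41, 46.4% of the 457 genes of the whole table called lower in CybbKO and 29.1% of all genes tested. The first principal component (-56.5, -16.6 and -61.0) had this order too. The neutrophil sums (4424, 2491 and 11643 CPM) had the reverse order, and 3 libraries cannot tell these apart. The fibroblast and neutrophil sums of these libraries were above those of the naive ones, and the part of tissue composition in the lower levels was not tested.

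Cbr3, a carbonyl reductase, was called in both genotypes. It stood at 121, 137 and 141 CPM in WT naive, 89.2, 80.1 and 85.1 CPM in WT ligated, 151, 131 and 138 CPM in CybbKO naive and 77.3, 90.1 and 70.6 CPM in CybbKO ligated libraries. The ligated and naive libraries did not overlap in either genotype. Cbr3 fell by 0.65 (SE 0.12, edgeR adjusted p = 0.0173) in WT and by 0.82 (SE 0.12, adjusted p = 0.00229) in CybbKO on the log2 scale. Cbr3 and Gstm1 kept their CybbKO calls in all 12 fits that left out a library. Its neighbour in function, Cbr1, fell by 0.51 (SE 0.14, adjusted p = 0.0287) in CybbKO.

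Gstm1, a glutathione S-transferase, stood at 338, 376 and 370 CPM in WT naive, 253, 192 and 241 CPM in WT ligated, 332, 361 and 469 CPM in CybbKO naive and 195, 261 and 162 CPM in CybbKO ligated libraries. It did not overlap between the conditions in either genotype. It fell by 0.91 (SE 0.19, edgeR adjusted p = 0.00968) in CybbKO, and in WT the difference was -0.66 (SE 0.19, adjusted p = 0.0793). Gsta3 and Gstp1, of the same enzyme class, fell by 0.75 (adjusted p = 0.0308) and 0.59 (adjusted p = 0.0358) in CybbKO. The other transferases of the list, Gsta1, Gsta2, Gsta4, Gstm2, Gstm3, Gstm4 and Mgst1, were not called by edgeR, with log2 differences in CybbKO from -0.57 (Gsta2) to 0.56 (Gstm3). These families hold near-identical copies that can share reads, so the level of a single transferase is uncertain. Ephx1, the microsomal epoxide hydrolase, fell by 0.69 (adjusted p = 0.0382) and Cat, the catalase that breaks down hydrogen peroxide, by 0.46 (adjusted p = 0.0339).

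Between the genotypes edgeR and DESeq2 called 0 of the 41 in ligated tissue, in naive tissue and for the interaction. At an unadjusted p under 0.05 there were 0 in ligated tissue, 1 in naive tissue and 0 for the interaction. The call of 7 genes in CybbKO against 1 in WT is therefore not a shown difference between genotypes. The median difference between genotypes over the 41 was 0.02 in ligated and 0.08 in naive tissue.

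**Figure D5:**
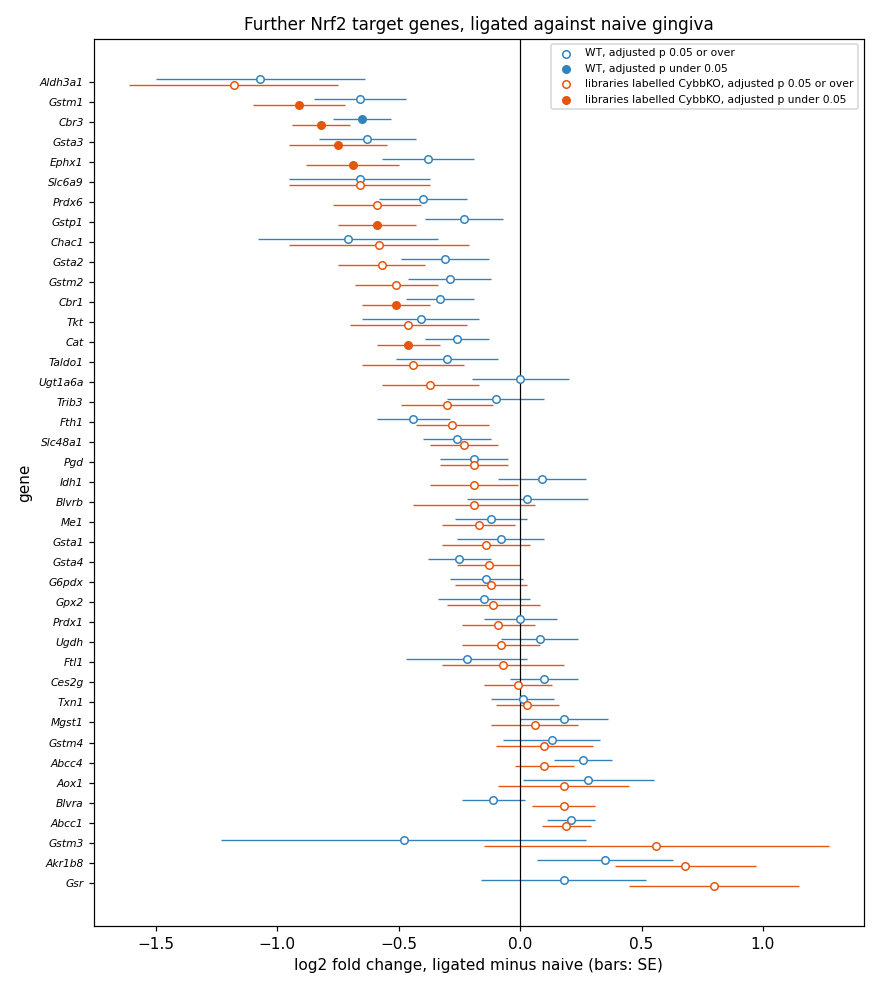
Log2 fold change of the 41 further Nrf2 target genes in ligated against naive gingiva (horizontal axis), in WT and in the libraries labelled CybbKO, with the SE as bars. Filled points have an adjusted p under 0.05 in edgeR, which are 1 gene in WT (Cbr3) and 7 in CybbKO, all lower in ligated tissue.

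Genes of heme, iron and cystine handling, which count Hmox1 and Slc7a11 among their 15, included 2 that were called higher in CybbKO ligated tissue. This is 13.3% of the list, near the 9.95% of all genes called higher. In WT edgeR called 0, 3 passed at an unadjusted p under 0.05, where 19.9% of all genes did, and DESeq2 called 1 lower (Fth1, a ferritin subunit), beside 8.93% of all genes. Hp, haptoglobin, rose from 4.24, 0.444 and 2.5 CPM in CybbKO naive to 25.1, 20.7 and 26.7 CPM in CybbKO ligated libraries, by 3.33 on the log2 scale (SE 0.65, edgeR adjusted p = 0.00741). Slc40a1, the iron exporter ferroportin, rose by 0.82 (SE 0.22, adjusted p = 0.0282), a call that was lost without CybbKO ligated replicate 1 or 3 or CybbKO naive replicate 2 or 3, while 3 genes (Ggt5 as well) were called without WT ligated replicate 3. Between genotypes in ligated tissue edgeR called 0 of 15 and DESeq2 called 1, Hp, beside 0.112% of all genes. Hp is also a product of neutrophils, whose marker sums were higher in the same libraries, and their part in Hp was not tested.

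NF-kB target genes, a list of inflammatory mediators with the feedback inhibitors Nfkbia and Tnfaip3, mostly had higher means in ligated tissue. In CybbKO 6 of 10 were called higher in ligated tissue, beside 9.95% of all genes, with a median of 1.00, and in WT edgeR called 0 of 10, 4 passed at an unadjusted p under 0.05, where 19.9% of all genes did, and DESeq2 called 1 (Il1b), beside 8.93% of all genes, with a median of 0.49. The 6 were the cytokine gene Il1b (2.71, SE 0.53), the prostaglandin synthase gene Ptgs2 (2.94, SE 0.70), the chemokine gene Cxcl2 (2.32, SE 0.70), the adhesion molecule gene Icam1 (1.28, SE 0.32), the survival gene Birc3 (1.09, SE 0.23) and the feedback inhibitor Tnfaip3 (0.92, SE 0.22), as log2 differences with edgeR adjusted p-values from 0.00729 (Il1b) to 0.0483 (Cxcl2). Their count was 2 (Il1b and Birc3) without CybbKO ligated replicate 1, CybbKO ligated replicate 3 or CybbKO naive replicate 2. It was 3 when CybbKO naive replicate 3 was left out, and 4 when CybbKO naive replicate 1 was. All 10 had a positive difference between genotypes in ligated tissue, with a median of 0.40, and edgeR and DESeq2 called 0 of 10 there and for the interaction, with 1 each at an unadjusted p under 0.05 (Il1b and Tnfaip3). The neutrophil marker sums were 818 to 924 CPM in CybbKO naive and 2491 to 11643 CPM in CybbKO ligated libraries, and the macrophage sums 112 to 121 and 262 to 428 CPM, and their part in these genes was not tested.

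ATF4 target genes, which share Slc7a11 with the members, included 1 of 11 called lower in each genotype, beside 0.884% of all genes in WT and 3.04% in CybbKO. Slc7a5, a large neutral amino acid transporter, fell by 0.90 in WT (SE 0.22, edgeR adjusted p = 0.0497), and Psat1, an enzyme of serine synthesis, fell by 0.57 in CybbKO (SE 0.14, adjusted p = 0.0207). The Slc7a5 call was lost in 10 of the 12 fits that left out a library (kept without CybbKO ligated replicate 1 or 2), and the Psat1 call without CybbKO ligated replicate 1 or 3 or CybbKO naive replicate 1 or 3. Without CybbKO ligated replicate 2 the counts were 2 in WT and 5 in CybbKO. Calls over all genes also moved when a library was left out, to 27 to 900 in WT and 837 to 2949 in CybbKO, against 481 and 1954. The medians over the 11 genes were -0.30 in both genotypes, and edgeR and DESeq2 called 0 between genotypes, with 0 in ligated and 2 (Trib3 and Asns, named after their values were seen) in naive tissue at an unadjusted p under 0.05. In the average over both genotypes, added after seeing the data, edgeR called 5 of 11 lower (45.5%), and 2 to 6 with a library left out. The shares called lower there were 40.0% of the members, 31.7% of the 41 further targets and 9.66% of all genes.

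The genes whose level ran most like that of Nfe2l2 over the 12 libraries were Srfbp1 (Pearson's r of log2 CPM 0.973), Paxip1 (0.970), Nat10 (0.964), Utp15 (0.962) and Pus7 (0.960). Those most like the mean of the 8 targets were Arpc2 (0.891), Mthfd1l (0.879), Fignl1 (0.878), Cry1 (0.877) and Endod1 (0.860). Each r is a description over 12 libraries that share their condition.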

How the data were processed

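The labels gave the group of each of the 12 gingival libraries. The deposited values are raw counts per Ensembl gene that the authors did not normalize, from stranded mRNA libraries. The study's methods name STAR, GRCm38 and strand-specific featureCounts, while the submitters' processing notes name HTSeq 0.10.0 and FastQC 0.10.1, so the counting tool is unsettled. Symbols, exon lengths and positions came from GENCODE M21.

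All libraries entered 1 quasi-likelihood fit of edgeR 4.0.16 (R 4.3.3), with a mean for each group, TMM scaling and filterByExpr. Benjamini-Hochberg adjustment ran over all 15046 genes, and calls are at 0.05. DESeq2 1.42.0 was an alternative, and 95% intervals used the fit's degrees of freedom. CPM carry the TMM scaling. Python 3.11.15 drew the figures. In counts simulated for WT ligated against naive with 200 changed genes, 14930 to 14952 genes were fitted, and edgeR recovered 42.0% of 2-fold and 86.7% of 4-fold changes.

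The members and lists were chosen with earlier results of these data known. By rule, all members, the called genes of each list (up to 8 per comparison), the 5 genes most like Nfe2l2 or the targets' mean, and Cybb are named. In the average over both genotypes, the ATF4 and further target lists are given as counts or shares only. Nfe2l1, Bach1, Nfkbia and the transferases that were not called are named beyond this rule, to describe their lists. Alternatives changed scaling, filter, fit, replicate block and libraries.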

Additional observations from a re-analysis of the deposited data

How the results depend on the processing

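Directions of Nfe2l2, Gclc, Nqo1 and Srxn1, ligated against naive, were kept under all 20 alternatives in each genotype, and signs changed under some alternative in 3 members in WT (Gclm, Txnrd1 and Slc7a11) and 1 in CybbKO (Hmox1). edgeR's 0 called members became 2 in WT (Nfe2l2 and Gclc) and 1 in CybbKO (Nfe2l2) with DESeq2. Leaving out each library gave 0 to 2 in WT and 0 to 1 in CybbKO, the higher count without WT naive replicate 3. The average over genotypes gave 4 members, 1 (Nfe2l2) when scaled to library size alone and 1 to 4 when a library was left out. The causes were not tested. Between genotypes and for the interaction the count of called members was 0 under all alternatives run, and signs changed under some alternative in 6 members in ligated tissue, 5 in naive tissue and 6 for the interaction. Library size alone moved the median of all genes in WT from -0.03 to 0.08. Over all genes, ligated against naive, edgeR called 481 in WT (1372 by DESeq2, 27 to 900 with a library left out) and 1954 in CybbKO (2802 by DESeq2, 837 to 2949).

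Same-numbered libraries were not paired. Their deviations from the group means correlated at -0.228 to 0.277 over 18 pairs, 2 of them above 0.1. With a replicate block, 0 members were called in each genotype, 2 (Nfe2l2 and Srxn1) in the average, 0 between genotypes, 4 further targets in CybbKO (Gstm1, Ephx1, Cbr3 and Cat, against 7), Nfe2 alone among the partners in the average, and 271 of all genes in WT. The biological coefficient of variation was 0.240 with 3 libraries a group. Recovery was simulated for 2-fold and 4-fold changes and not for smaller ones, and no member changed by 2-fold.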

Other observations

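Among the members, the closest pairs over the 12 libraries were Nfe2l2 with Srxn1 (Pearson's r of log2 CPM 0.878), Keap1 with Osgin1 (0.765) and Nfe2l2 with Gclc (0.708). The most opposite pairs were Keap1 with Slc7a11 (-0.567) and Slc7a11 with Osgin1 (-0.559). Slc7a11 and Osgin1 also stood at opposite ends against the summed oral epithelial markers, with r of -0.805 and 0.721. The points share their condition and scaling, and no test was made.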
